A study of Mus musculus with 31 samples.

Results

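The 33 genes described here encode the enzymes and transporters of glycolysis and lactate handling, the oxygen-sensing machinery and a few targets of hypoxia. They were chosen by symbol from a list, and all 33 were found in every count table, out of 48211 symbols shared by both kinds of table. Glycolysis breaks glucose down to pyruvate. Lactate dehydrogenase turns pyruvate into lactate, which leaves or enters the cell through monocarboxylate transporters, while pyruvate dehydrogenase kinases hold pyruvate back from the mitochondrial dehydrogenase complex. The transcription factor HIF-1, whose alpha subunit is marked for destruction by EGLN prolyl hydroxylases when oxygen is present, switches on many of these genes, and activated T cells are known to raise glycolysis even where oxygen is plentiful.

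The study measured poly-A RNA from mice of strain C57B/6 with a Vav1-Myo1f fusion allele, which joins the exchange factor VAV1 to the unconventional myosin MYO1F, under Cre recombinase driven by Cd4. The 31 libraries form 3 sets. In the pre-lymphoma set, all of CD4+ T cells, were 3 libraries called fusion/fusion here, whose genotype label joins the fusion genotype Vav1Myo1ffl/wt;CD4CreERT2 to itself with a slash, 3 called control/fusion, whose label joins the control genotype CD4-Cre-ERT2(WT) to the fusion genotype, and 2 CD4-Cre-ERT2(WT) controls. The labels leave the slash unexplained. The CD4-Cre set held lymphomas of CD4-CreVav1Myo1f fl/wt mice as 4 libraries of CD4+ T cells and 3 of whole spleen, against 3 libraries of each tissue from CD4-Cre(WT) controls. The CD4-CreERT2 set held lymphomas of CD4-CreERT2Vav1Myo1f fl/wt mice as 2 libraries of CD4+ T cells and 3 of whole spleen, against 2 and 3 libraries from CD4-CreERT2 (WT) controls. CreERT2 is a Cre that acts only once tamoxifen is given, and the controls of every set carry the Cre too. Ages are not given. The pre-lymphoma labels do not say that the libraries came from separate animals, so p-values there measure the spread between libraries. The number VM645 names a tumor library and also a pair of control libraries, which the labels treat as different mice.

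Total counts per library were 12632196 to 29257595 in the pre-lymphoma set, 24480017 to 37568512 in the CD4-Cre set and 24772099 to 36879923 in the CD4-CreERT2 set. The summed level of 10 T cell markers was 4636 to 8667 CPM (a gene's count relative to the total of its library) in CD4+ libraries and 1044 to 2937 CPM in spleen libraries. In the CD4-CreERT2 set, all 3 control mice and tumor mouse VM236 were female by Xist and Ddx3y counts, and tumor mice VM231 and VM294 were male. Levels below are CPM after TMM scaling within a set, and a difference between groups is a log2 fold change with its standard error. A gene passed where the adjusted p of edgeR's quasi-likelihood test, taken over all genes tested, was under 0.05. All 33 genes entered every test. These are bulk RNA samples, in which fewer cells of a type and less RNA per cell cannot be told apart.

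In fusion/fusion-labelled CD4+ T cells before lymphoma, 19 of the 33 genes rose and 2 fell against control, where 23.8% of the 16257 genes tested rose and 22% fell. The median log2 difference of the 33 was 0.35, against -0.01 over all genes. Every library of the fusion/fusion group lay above both controls for 23 of them and below both for 4, where 33.1% and 32.8% of all genes did so. The oxygen sensor Egln3, the lactate exporter Slc16a3, triosephosphate isomerase Tpi1 and aldolase C (Aldoc) rose most, and the mitochondrial gatekeeper kinase Pdk1 fell most. In control/fusion-labelled cells 7 genes rose and 1 fell against the same controls, where 11.6% and 8.7% of all genes did, and the median log2 difference was 0.11, against 0.00 over all genes. For 12 members every control/fusion library lay above both controls and for 6 below both (all genes, 26.4% and 26.3%). Both comparisons use the same 2 controls. Without the control library TA019, 2 members passed as higher in control/fusion cells (all genes, 3.28%).

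Set directly against control/fusion cells, fusion/fusion cells had 13 members higher and 1 lower, where 9.59% and 9.3% of all genes passed in those directions. The median log2 difference was 0.25, against 0.00 over all genes, and 24 members lay above in every library and 1 below (all genes, 19.4% and 18.7%). The count of higher members was 8 without the control/fusion library TA022 and 8 without the fusion/fusion library TA024 (all genes, 6.7% and 4.86%). The mean log2 CPM over the 33 genes was 5.83 ± 0.06 in fusion/fusion cells, 5.56 ± 0.01 in control/fusion cells and 5.42 ± 0.09 in control (SD, n = 3, 3 and 2).

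**Figure D1:**
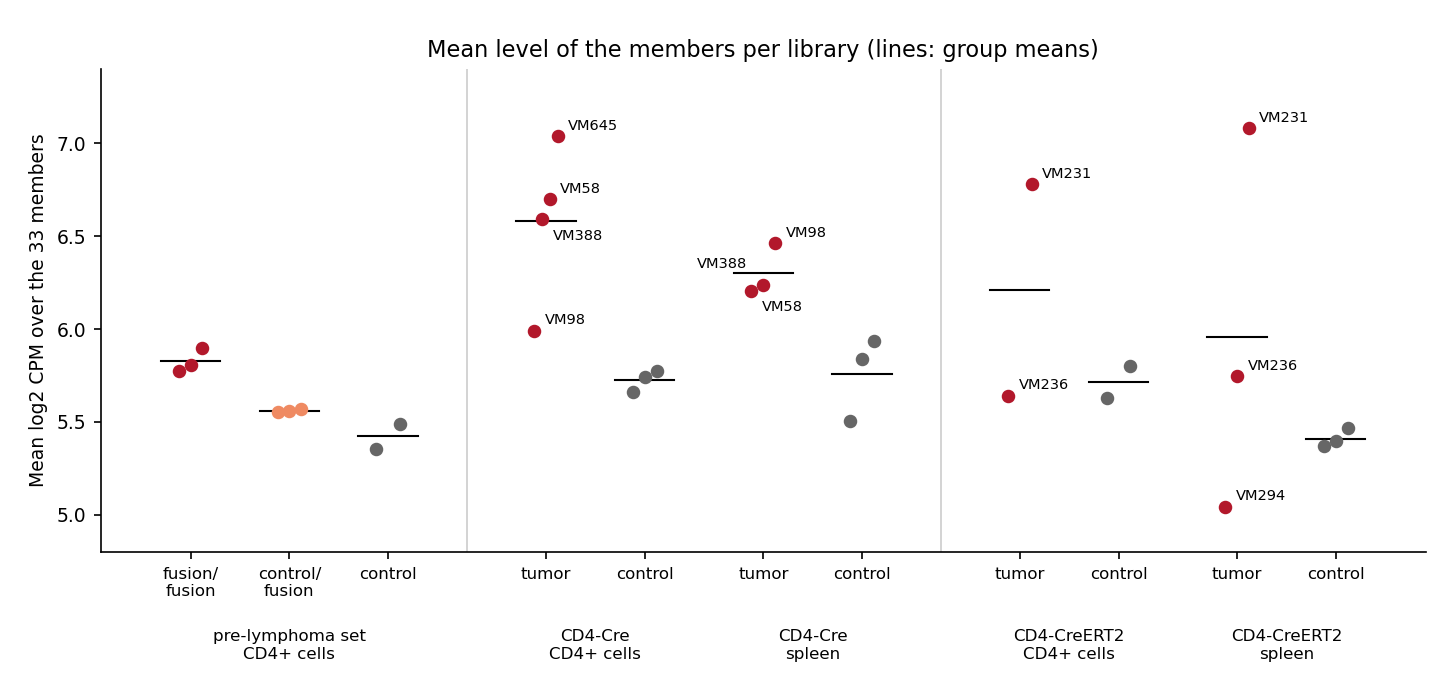
Mean log2 CPM over the 33 genes in each library (vertical axis), by group along the horizontal axis; each point is a library and each line a group mean. In the pre-lymphoma set the groups do not overlap (5.77 to 5.90, 5.55 to 5.57, and 5.36 and 5.49), and the CD4-CreERT2 tumor libraries spread from 5.04 to 7.08 in spleen.

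Oxygen sensing and lactate transport carried the largest increases. Egln3, a prolyl hydroxylase that is itself a HIF target, had 25.5, 24.1 and 20.3 CPM in fusion/fusion cells, 14.7, 12.02 and 12.1 CPM in control/fusion cells and 7.55 and 4.27 CPM in control. The 3 groups did not overlap. Egln3 rose by 1.99 ± 0.22 in fusion/fusion cells (adjusted p = 7.3e-05) and by 1.13 ± 0.22 in control/fusion cells (adjusted p = 0.00625), and it was 0.86 ± 0.18 higher in fusion/fusion than in control/fusion cells (adjusted p = 0.0102), on the log2 scale by edgeR. Its relative Egln1, the main hydroxylase that sets HIF-1 alpha turnover, differed by -0.09 ± 0.07 and did not pass.

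Slc16a3 encodes MCT4, the transporter through which glycolytic cells export lactate. It had 13.01, 16.3 and 15.7 CPM in fusion/fusion cells, 8.62, 8.19 and 10.7 CPM in control/fusion cells and 6.56 and 5.10 CPM in control, again with no overlap. The log2 difference was 1.36 ± 0.18 for fusion/fusion and 0.67 ± 0.18 for control/fusion cells against control (edgeR adjusted p = 0.00021 and 0.026). It was 0.69 ± 0.15 between fusion/fusion and control/fusion cells (edgeR adjusted p = 0.0129). The control/fusion increase of Slc16a3 no longer passed without TA019 (0.49, adjusted p = 0.191 by edgeR) or without TA022 (0.53, adjusted p = 0.0776 by edgeR), and the fusion/fusion over control/fusion difference did not pass without TA024 (0.63, adjusted p = 0.0544 by edgeR). Slc16a1, or MCT1, the more general lactate carrier, had 38.5 to 42.3 CPM in fusion/fusion cells and 33.6 and 43.2 CPM in control, which overlap. Per kilobase of exon, Slc16a3 made up 20.8 to 25.4% of both lactate transporters in fusion/fusion cells, 15.6 to 19.1% in control/fusion cells and 11.2% in each control.

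**Figure D2:**
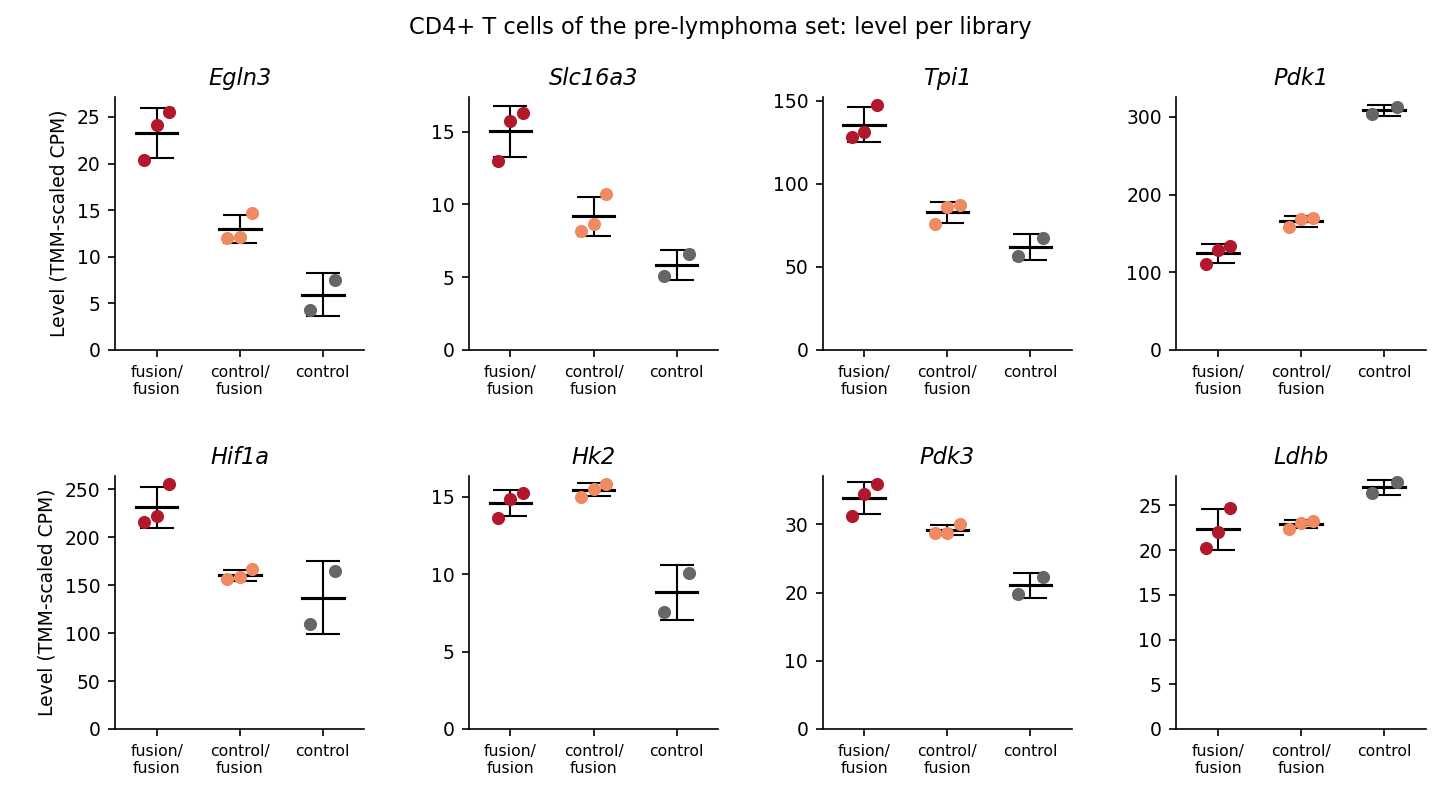
Level (TMM-scaled CPM, axis from 0) of 8 members in each CD4+ library of the pre-lymphoma set; points are libraries, the long bar is the mean and the whiskers 1 SD. Egln3, Slc16a3 and Tpi1 step down from fusion/fusion over control/fusion to control, Pdk1 steps up, and Hk2 is at 13.7 to 15.8 CPM in both fusion groups.

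Hif1a, the oxygen-regulated subunit itself, had 256, 215.6 and 222 CPM in fusion/fusion cells, 158, 167 and 156 CPM in control/fusion cells and 164 and 109.8 CPM in control. The fusion/fusion libraries stood above all the others, while control/fusion and control libraries overlapped. Hif1a rose by 0.76 ± 0.14 in fusion/fusion cells (adjusted p = 0.00178 by edgeR), and its control/fusion difference of 0.23 ± 0.14 did not pass. The fusion/fusion over control/fusion difference was 0.53 ± 0.13 (edgeR adjusted p = 0.0169), and 0.51 with an adjusted p of 0.0511 by edgeR without TA022. Among other HIF targets, Vegfa, the endothelial growth factor, was low, at 1.68, 4.18 and 2.43 CPM in fusion/fusion cells, 1.03 to 1.58 CPM in control/fusion cells and 1.12 and 1.53 CPM in control. Its fusion/fusion over control difference of 1.02 ± 0.39 did not pass (adjusted p = 0.0515 by edgeR), and the difference over control/fusion cells passed at 1.14 ± 0.36 (adjusted p = 0.0495 by edgeR). The mitophagy receptor Bnip3 differed from control by 0.57 ± 0.22 and did not pass (edgeR adjusted p = 0.0551), and the cytokine Mif rose by 0.46 ± 0.07.

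Of the 7 enzymes of the lower pathway, from glyceraldehyde phosphate dehydrogenase to pyruvate kinase, 6 rose in fusion/fusion cells. Phosphoglycerate kinase, Pgk1, the first ATP-yielding step, had 178, 201 and 175 CPM in fusion/fusion cells, 130, 136 and 136 CPM in control/fusion cells and 119 and 99.5 CPM in control. The groups did not overlap, and Pgk1 rose by 0.76 ± 0.09 in fusion/fusion and by 0.30 ± 0.09 in control/fusion cells. Gapdh (0.75 ± 0.10), Pgam1 (0.48 ± 0.10), pyruvate kinase Pkm (0.41 ± 0.07), Eno1 (0.26 ± 0.07) and the neuron-type enolase Eno2 (0.66 ± 0.24) also rose in fusion/fusion cells. The muscle-type enolase Eno3 differed by 0.06 ± 0.10 and did not pass.

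**Figure D3:**
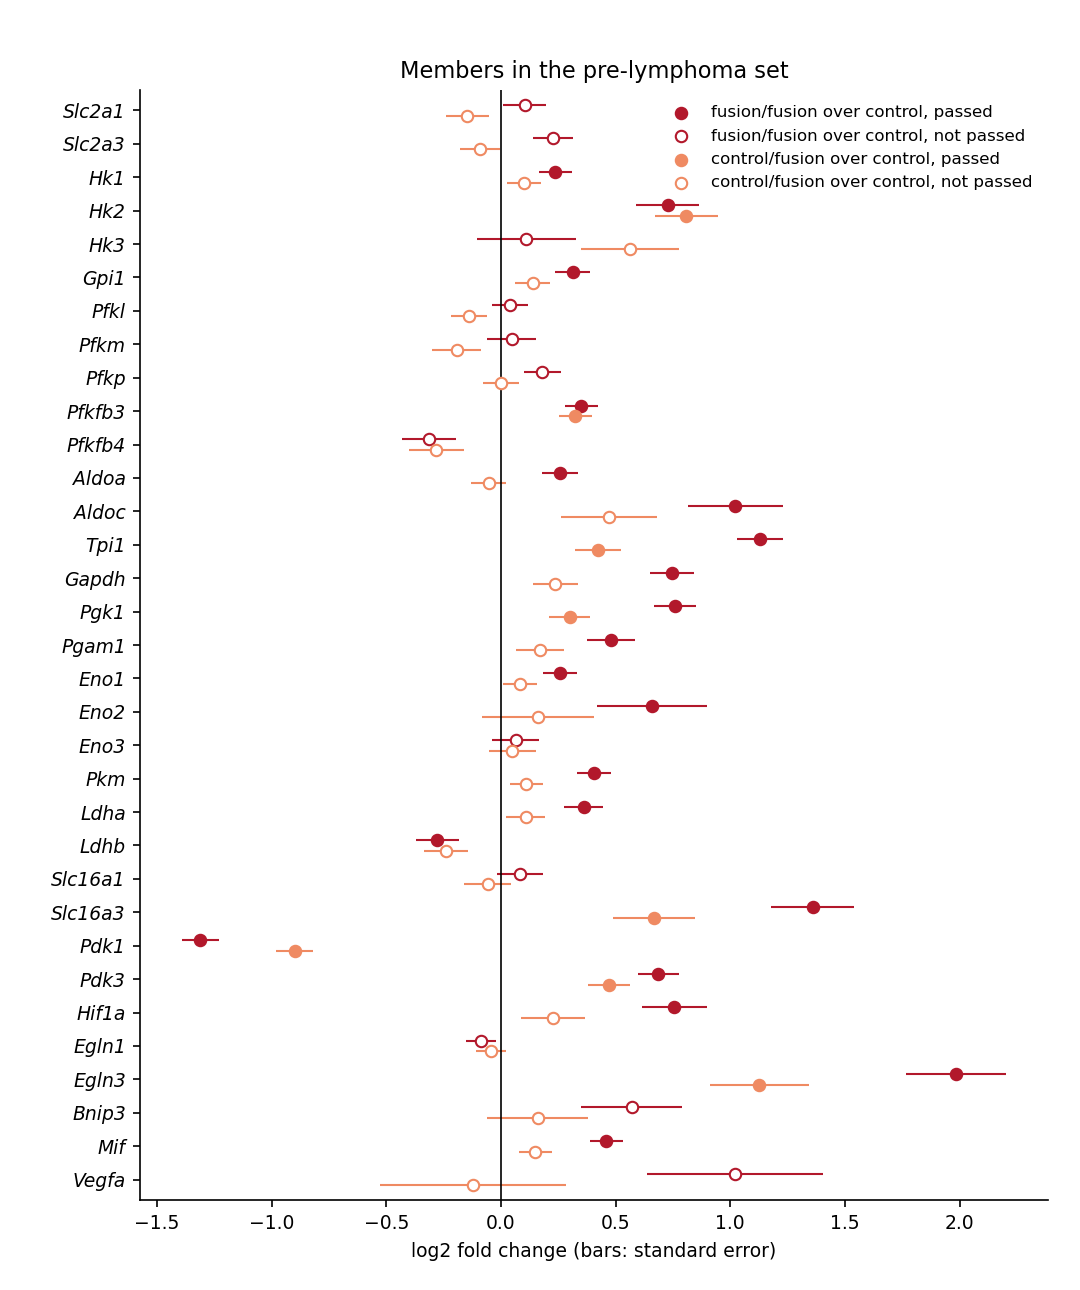
log2 fold change against control (horizontal axis, bars 1 standard error) of each of the 33 genes in fusion/fusion cells (dark) and control/fusion cells (light); filled points passed. Egln3 at 1.99 and Pdk1 at -1.31 mark the ends in fusion/fusion cells, and both groups are set against the same 2 control libraries.

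Of the 7 genes of the upper pathway from glucose phosphate isomerase to triosephosphate isomerase, 4 rose in fusion/fusion cells, and no phosphofructokinase gene passed. Tpi1, which interconverts the triose phosphates, had 128, 147 and 131 CPM in fusion/fusion cells, 87.1, 75.6 and 85.8 CPM in control/fusion cells and 67.5 and 56.3 CPM in control, without overlap. It rose by 1.13 ± 0.10 in fusion/fusion and by 0.42 ± 0.10 in control/fusion cells. Aldoc, the brain-type aldolase, had 7.15, 7.59 and 6.99 CPM in fusion/fusion cells, 5.17, 4.05 and 5.49 CPM in control/fusion cells and 4.23 and 2.90 CPM in control. Its libraries did not overlap between fusion/fusion cells and the rest. Its fusion/fusion increase was 1.02 ± 0.21, while the main form Aldoa rose by 0.26 ± 0.08. Per kilobase, Aldoa still made up 98.03 to 98.2% of both aldolases in fusion/fusion cells. Gpi1, the isomerase after hexokinase, rose by 0.31 ± 0.08. The phosphofructokinase subunits Pfkl, Pfkm and Pfkp, which form the committed step, differed by 0.04 ± 0.08, 0.05 ± 0.11 and 0.18 ± 0.08 and did not pass.

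Of the 3 hexokinases, 2 rose in fusion/fusion cells. Hk2, the inducible hexokinase of activated lymphocytes, had 14.9, 15.2 and 13.7 CPM in fusion/fusion cells, 15.5, 15.8 and 15.01 CPM in control/fusion cells and 10.1 and 7.57 CPM in control. Both fusion groups lay above control and overlapped each other. Hk2 rose by 0.73 ± 0.14 in fusion/fusion and by 0.81 ± 0.14 in control/fusion cells, and the difference between those groups, -0.08 ± 0.12, did not pass. Pfkfb3, the enzyme that makes the sugar phosphate activating phosphofructokinase, rose by 0.35 ± 0.07 in fusion/fusion and by 0.33 ± 0.07 in control/fusion cells, and the difference between those groups, 0.03 ± 0.06, did not pass. The housekeeping Hk1 rose by 0.24 ± 0.07 in fusion/fusion cells, and Hk3 of myeloid cells differed by 0.11 ± 0.22 and did not pass. Glucose transporters Slc2a1 and Slc2a3 differed from control by 0.10 ± 0.09 and 0.23 ± 0.09, and neither passed (edgeR adjusted p = 0.384 and 0.0514). Slc2a3 was 0.32 ± 0.08 higher in fusion/fusion than in control/fusion cells and passed there.

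The pyruvate branch was split between its isozymes. Pdk1, which phosphorylates and shuts pyruvate dehydrogenase, had 128.5, 111 and 134 CPM in fusion/fusion cells, 169, 169.9 and 158 CPM in control/fusion cells and 304 and 313 CPM in control, with no overlap. It fell by 1.31 ± 0.08 in fusion/fusion cells, fell by 0.90 ± 0.08 in control/fusion cells and was 0.41 ± 0.07 lower in fusion/fusion than in control/fusion cells (edgeR adjusted p = 3.12e-06, 0.000205 and 0.00532). Pdk3, another such kinase, had 34.4, 35.9 and 31.3 CPM in fusion/fusion cells, 30.1, 28.8 and 28.7 CPM in control/fusion cells and 22.3 and 19.8 CPM in control. The groups did not overlap. Pdk3 rose by 0.69 ± 0.09 in fusion/fusion and by 0.47 ± 0.09 in control/fusion cells, and the control/fusion call was lost without TA019 (0.38, adjusted p = 0.0735 by edgeR). Per kilobase, Pdk1 was 50.4 to 58.5% of both kinases in fusion/fusion cells, 64.4 to 66.0% in control/fusion cells and 81.8 and 83.9% in control.

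Lactate dehydrogenase A, the form that favours lactate production, rose in fusion/fusion cells by 0.36 ± 0.09, at 496, 605 and 527 CPM in fusion/fusion cells, 445, 467 and 454 CPM in control/fusion cells and 434 and 411 CPM in control. Ldhb, the form typical of oxidative tissues, had 22.01, 20.2 and 24.7 CPM in fusion/fusion cells, 22.4 to 23.2 CPM in control/fusion cells and 27.6 and 26.4 CPM in control. Ldhb fell by 0.28 ± 0.10 (adjusted p = 0.0358 by edgeR), a call lost with DESeq2, with no filter on low counts, in a fit of both groups alone, and without any 1 of 6 of the libraries. Per kilobase it was 6.58 to 9.01% of both lactate dehydrogenases in fusion/fusion cells, 9.18 to 9.92% in control/fusion cells and 11.8 and 11.9% in control.

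The sequence before the transcription start is shown for 4 genes that rose, Egln3, Slc16a3, Hk2 and Pgk1, and for Pdk1, which fell, because HIF-1 binds the letters ACGTG or GCGTG. These are examples, not picked by size of change. Tpi1 and Aldoc rose more in fusion/fusion cells than Hk2 and Pgk1 and are not printed. Each run is the 250 bases before an annotated RefSeq start in build GRCm38.p6, 5′ to 3′ on the gene's strand, with every match to ACGTG or GCGTG, or to its reverse complement, in capitals. The windows are chr12:54203875-54204124 (minus strand) for Egln3, chr11:120948817-120949066 (plus) for Slc16a3, chr6:82774455-82774704 (minus) for Hk2, chrX:106186850-106187099 (plus) for Pgk1 and chr2:71872974-71873223 (plus) for Pdk1.
Egln3: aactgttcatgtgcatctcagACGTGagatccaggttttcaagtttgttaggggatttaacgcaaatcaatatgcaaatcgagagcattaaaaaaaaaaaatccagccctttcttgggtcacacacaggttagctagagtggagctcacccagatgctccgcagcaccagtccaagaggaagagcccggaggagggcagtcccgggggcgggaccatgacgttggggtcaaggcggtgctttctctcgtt
Slc16a3: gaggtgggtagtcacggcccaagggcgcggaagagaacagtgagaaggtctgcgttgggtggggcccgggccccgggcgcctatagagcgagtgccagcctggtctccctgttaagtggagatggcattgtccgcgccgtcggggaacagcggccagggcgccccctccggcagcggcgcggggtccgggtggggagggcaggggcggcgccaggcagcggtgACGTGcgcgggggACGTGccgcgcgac
Hk2: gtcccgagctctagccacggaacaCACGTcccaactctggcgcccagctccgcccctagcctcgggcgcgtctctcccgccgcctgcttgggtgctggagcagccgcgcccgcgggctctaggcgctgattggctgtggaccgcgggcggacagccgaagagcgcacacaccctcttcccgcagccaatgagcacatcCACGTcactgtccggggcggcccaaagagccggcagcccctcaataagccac
Pgk1: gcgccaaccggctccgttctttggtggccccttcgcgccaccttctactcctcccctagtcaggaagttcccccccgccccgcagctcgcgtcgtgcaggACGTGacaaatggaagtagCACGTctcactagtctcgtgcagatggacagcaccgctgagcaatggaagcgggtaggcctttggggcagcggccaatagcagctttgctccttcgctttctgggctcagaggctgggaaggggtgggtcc
Pdk1: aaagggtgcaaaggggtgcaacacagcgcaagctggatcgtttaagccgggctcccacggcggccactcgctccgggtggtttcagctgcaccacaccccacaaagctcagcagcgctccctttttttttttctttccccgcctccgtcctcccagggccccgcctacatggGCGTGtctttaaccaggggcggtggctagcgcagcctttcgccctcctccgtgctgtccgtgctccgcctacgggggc
Matches on opposite strands overlap where the letters read CACGTG. Egln3 and Pdk1 held 1 match each, and Slc16a3, Hk2 and Pgk1 held 2 each. Pdk1 has another annotated start, whose window chr2:71874654-71874903 held 0 matches and is not printed. Of 46 annotated promoters of 32 of the members, 36 (78.3%) held either motif, 21 with ACGTG (45.7%) and 24 with GCGTG (52.2%). Of 32851 promoters of all genes, 38.6% held either, 16.6% ACGTG and 28.2% GCGTG. The members' windows were richer in G and C, with a median of 60%, against 52.4% over all promoters, and the matches were not compared at equal base composition. The windows of Tpi1 and Gpi1, which rose in fusion/fusion cells, held neither motif, and each Aldoc window held GCGTG but not ACGTG. Slc2a3 had no entry. A match describes letters and does not show binding.

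Other genes of the same pathways were read from longer lists. Of 31 tested genes of sugar, pyruvate and lactate metabolism outside the 33, 12 rose and 4 fell in fusion/fusion cells against control, where 23.8% and 22% of all genes did, with a median of 0.20. Slc2a6, a lysosomal glucose-transporter relative, had 12.9, 12.4 and 14.8 CPM in fusion/fusion cells, 5.85, 8.49 and 7.66 CPM in control/fusion cells and 6.10 and 3.21 CPM in control, a rise of 1.52 ± 0.26 in fusion/fusion cells. Ldhd, the D-lactate dehydrogenase, fell by 1.07 ± 0.21, and Pfkfb2 fell by 0.74 ± 0.17. Of 25 tested genes of oxygen sensing and hypoxia response, 9 rose and 5 fell in the same comparison, with a median of 0.11. The collagen lysyl hydroxylase Plod2 rose by 1.97 ± 0.26 and the repressor Bhlhe40 by 1.09 ± 0.15. Epas1, which encodes HIF-2 alpha, had 43.5, 55.9 and 48.0 CPM in fusion/fusion cells, 17.8, 16.8 and 15.8 CPM in control/fusion cells and 26.4 and 25.8 CPM in control. Epas1 rose by 0.91 ± 0.11 in fusion/fusion cells and fell by 0.64 ± 0.11 in control/fusion cells, both against control.

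Markers of dividing cells moved in the same comparisons. All 12 dividing-cell genes rose in both fusion groups against control, with summed levels of 923 to 1006 CPM in fusion/fusion cells, 450.2 to 541 CPM in control/fusion cells and 175 and 274.5 CPM in control. Plasma cell markers summed to 1302 to 1494 CPM in fusion/fusion cells, 609 to 730.4 CPM in control/fusion cells and 444 and 678 CPM in control, and 6 of 6 rose in fusion/fusion cells. Erythroid markers rose for 11 of 12 genes in fusion/fusion cells and for 8 of 12 in control/fusion cells, with sums of 423 to 492 CPM in fusion/fusion cells, 204.5 to 707 CPM in control/fusion cells and 108 and 181 CPM in control. Dendritic cell markers rose for 4 of 7 genes in fusion/fusion cells and for 7 of 7 in control/fusion cells, with sums of 182 to 200.5 CPM in fusion/fusion cells, 181 to 247.5 CPM in control/fusion cells and 75.2 and 104 CPM in control. The fusion libraries lay above both controls for both lists. Of the 9 stromal and endothelial markers 5 rose and 2 fell in fusion/fusion cells, and of the 9 B cell markers 3 fell. The 14 macrophage and monocyte markers summed to 2781 to 3665 CPM in fusion/fusion cells, 2759 to 5685 CPM in control/fusion cells and 2203 and 2776 CPM in control. The 10 neutrophil markers summed to 74.4 to 108 CPM in fusion/fusion cells, 44.9 to 54.4 CPM in control/fusion cells and 56.9 and 77.9 CPM in control. T cell markers summed to 6182 to 6754 CPM in fusion/fusion cells and 5801 and 5976 CPM in control. The part of these cells in the members' differences was not tested.

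In CD4+ T cells of CD4-Cre lymphomas, the lactate exporter Slc16a3, the oxygen sensor Egln3, the isomerase Tpi1 and the phosphofructokinases Pfkl and Pfkp were above every control in all 4 tumors, while Pfkfb4 was below. No member passed by edgeR in either direction, where 0.0168% of the 17841 genes tested were called higher and 0.14% lower. By edgeR 22 members had an unadjusted p under 0.05, as did 2699 of the 17841 genes. The members' median log2 difference was 0.98, against 0.06 over all genes, and 27 of 33 differences were positive. Every tumor library lay above all 3 controls for 19 members and below for 1, where 8.36% and 9.06% of all genes did so. DESeq2 called 18 members higher and 1 lower, where it called 3.69% of all genes higher and 3.47% lower. The fit with all groups of the set called Egln3, Pfkl, Pfkp and Slc16a3 higher (all genes, 0.123%). Without the library of mouse VM98 edgeR called 13 higher (all genes, 1.44%), all 13 of them among the 18 that DESeq2 called. The VM98 library stood apart from the rest of its set. It had 34546 genes with a count, against 21702 to 24573 in the other CD4-Cre libraries, the lowest total count of the set, 24480017, and the highest share of counts in rows that name no gene, 46.0%.

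Slc16a3 had 116, 127, 166 and 32.4 CPM in CD4+ tumor cells of mice VM388, VM58, VM645 and VM98 and 13.1, 13.9 and 10.8 CPM in controls, a log2 difference of 3.09 ± 0.51 (adjusted p = 0.0731 by edgeR). Egln3 had 130.5, 82.5, 78.2 and 31.2 CPM in the same tumor libraries and 9.90, 9.85 and 14.1 CPM in controls, a log2 difference of 2.79 ± 0.45 (adjusted p = 0.0701 by edgeR). Both genes were above every control in all 4 tumors and lowest in VM98. Per kilobase, Slc16a3 made up 55.7 to 83.6% of both lactate transporters in tumor cells and 29.9 to 39.7% in controls.

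Tpi1 had 684, 410, 1039 and 211.4 CPM in tumor cells and 114, 128 and 115 CPM in controls, a log2 difference of 2.26 ± 0.50. Aldoc had 62.4, 46.9, 107 and 16.6 CPM in tumor cells and 13.2, 11.1 and 15.2 CPM in controls, a log2 difference of 2.11 ± 0.55. Ldha had 1962, 1336, 3603 and 1273 CPM in tumor cells and 912, 996 and 1242 CPM in controls. All 4 tumors lay above the controls for these genes, with VM645 highest and VM98 lowest. Of the phosphofructokinase genes, Pfkp had 638, 553, 769 and 453 CPM in tumor cells and 269.6, 234 and 216.4 CPM in controls (log2 difference 1.29 ± 0.22), Pfkl differed by 1.18 ± 0.19 and Pfkm, with overlap, by 0.49 ± 0.29. The glucose transporter Slc2a1 had 126, 84.9, 106 and 62.3 CPM in tumor cells and 48.8, 49.7 and 41.6 CPM in controls, without overlap, whereas Slc2a3 differed by -0.41 ± 0.24 with overlap.

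Bnip3 differed by 2.37 ± 0.76 and Vegfa by 2.57 ± 0.75. Bnip3 overlapped the controls, since VM98 had 7.81 CPM and controls had 6.79 to 12.6 CPM. Pfkfb4, a sister of Pfkfb3 with a balance of kinase and phosphatase activity, was the member below controls in every tumor, at 15.1, 16.2, 9.34 and 14.9 CPM in tumor cells and 28.2, 34.4 and 24 CPM in controls (log2 difference -1.09 ± 0.25). Pdk1 differed by -0.43 ± 0.23 in CD4+ tumor cells and its libraries did not stand below every control. Members above all controls numbered 25 in VM388, 27 in VM58, 26 in VM645 and 21 in VM98, and 5, 3, 4 and 8 were below all controls. The share of all genes outside the controls in a single library was not counted, so these counts have no background. The members' median log2 difference from the control mean was 0.93, 0.90, 1.55 and 0.29 in the same order of libraries. Dividing-cell genes summed to 584 to 1609 CPM in tumor cells and 342 to 597 CPM in controls. Neutrophil markers summed to 2039 CPM in VM98, to 15.4 to 554.5 CPM in the other tumor libraries and to 220 to 1004 CPM in controls. Macrophage and monocyte markers summed to 511 to 4577 CPM in tumor cells and 5033 to 7381 CPM in controls, and dendritic cell markers to 28.4 to 125.5 CPM in tumor cells and 278 to 475 CPM in controls. Stromal and endothelial markers summed to 35.6 to 106 CPM in tumor cells and 123 to 139 CPM in controls, and T cell markers to 5845 to 8667 CPM in tumor cells and 4636 to 5432 CPM in controls. For these 4 lists the tumor and control libraries did not overlap. The part of any of them in the members' differences was not tested.

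**Figure D4:**
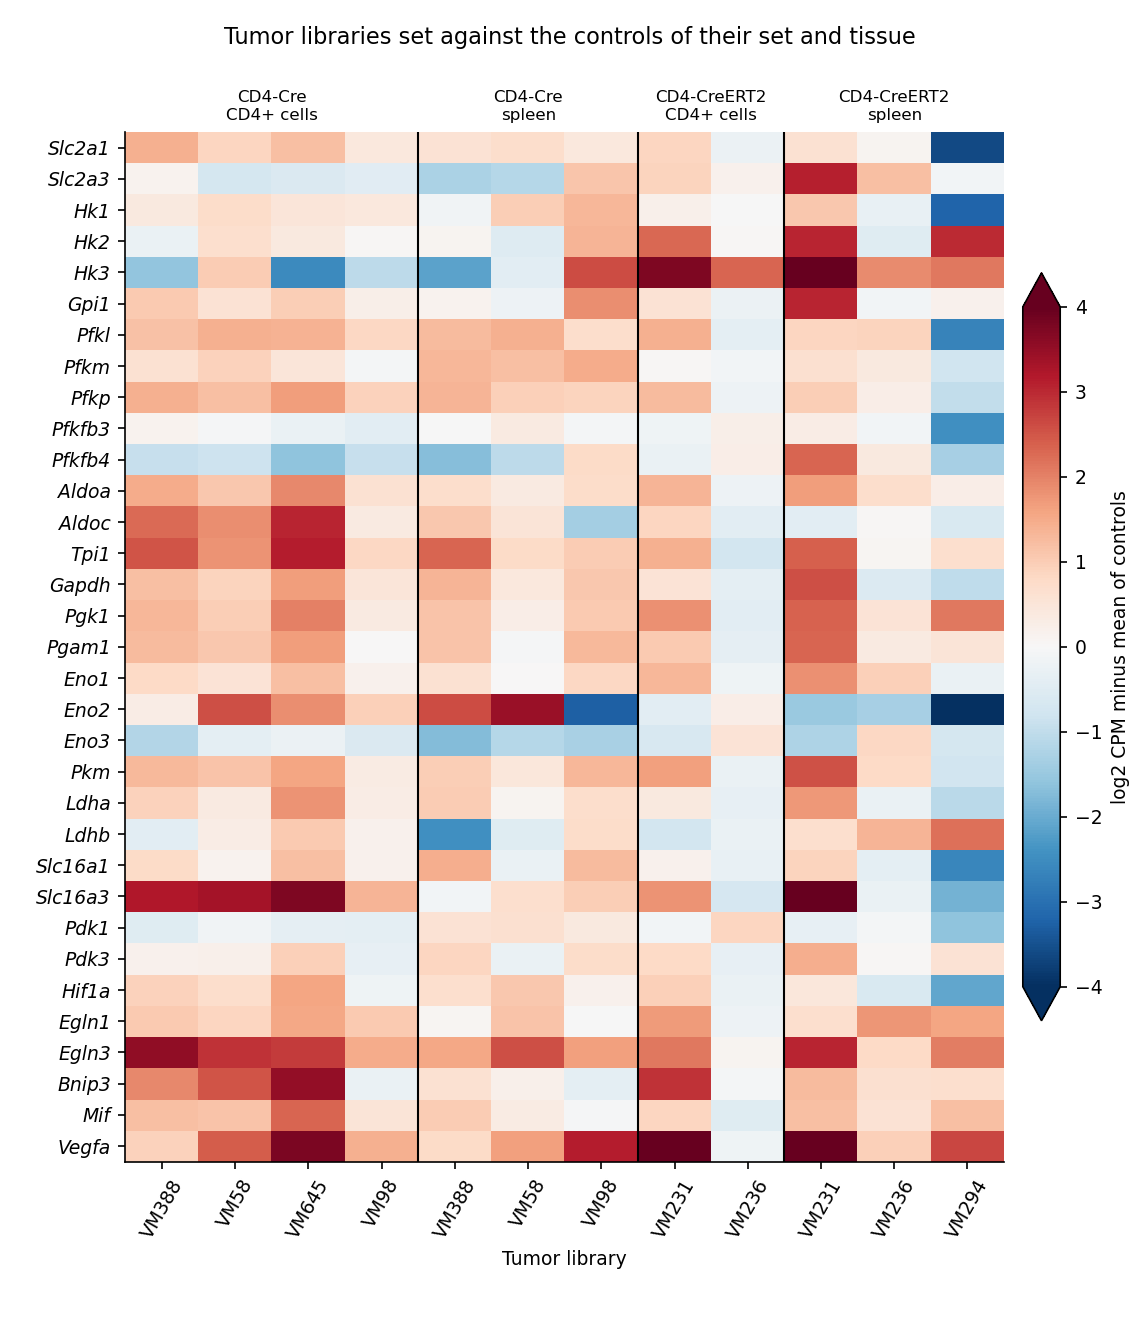
Difference in log2 CPM of each of the 33 genes (rows) in each tumor library (columns) from the mean of the controls of its set and tissue; red is higher and blue lower, with colours ending at 4 and -4. Egln3 is positive in every column, and in CD4+ cells of VM236 only 1 gene is over 1 and 0 are under -1.

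In whole spleen of CD4-Cre lymphomas, Egln3 and the 3 phosphofructokinase genes were above every control spleen in all 3 tumors, and the enolase Eno3 was below. No member passed by edgeR, where 0% of the 17050 genes tested were called in each direction. By edgeR 15 members had an unadjusted p under 0.05, as did 2373 of the 17050 genes. The median log2 difference of the members was 0.63, against 0.04 over all genes, and 29 differences were positive. All 3 tumor spleens lay above all 3 control spleens for 13 members and below for 1 (all genes, 11.1% and 11.3%). DESeq2 called 7 members higher and 1, Eno3, lower (all genes, 2.51% and 1.9%). Without the VM98 spleen edgeR called Egln3, Eno2 and Pfkl higher and Slc2a3 lower (all genes, 1.09% and 2.27%). Egln3 had 12.7, 26.1 and 13.7 CPM in spleens of VM388, VM58 and VM98 and 3.03, 5.13 and 5.18 CPM in control spleens, a log2 difference of 2.0 ± 0.42. Pfkm, Pfkl and Pfkp differed by 1.34 ± 0.31, 1.17 ± 0.25 and 1.07 ± 0.24, with every tumor spleen above every control spleen.

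Slc16a3 was not among the separated members in spleen, at 38.6, 66.7 and 83.2 CPM in tumor spleens and 24.4, 54.2 and 55.4 CPM in control spleens. Hk3, the hexokinase of myeloid cells, had 13.2, 43.6 and 358 CPM in spleens of VM388, VM58 and VM98 and 35.6, 60.5 and 95.2 CPM in control spleens. The VM98 spleen was also the high one for neutrophil markers, which summed to 75110 CPM there, to 215 and 312 CPM in the other tumor spleens and to 7285 to 48990 CPM in control spleens. The part of these cells in the level of Hk3 was not tested. The tumor difference in CD4+ cells minus that in spleen was 2.64 ± 0.69 for Slc16a3, 2.22 ± 0.89 for Bnip3 and -0.92 ± 0.30 for Pdk1. By edgeR these 3 members had an unadjusted p under 0.05, as did 1428 of the 19503 genes tested. No member passed by edgeR (all genes, 0% in each direction) or by DESeq2.

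In CD4+ T cells of CD4-CreERT2 lymphomas the 2 tumor libraries stood apart from each other. No member passed by edgeR, where 0% of the 17341 genes tested were called in each direction. By edgeR 1 member had an unadjusted p under 0.05, as did 896 of the 17341 genes. The members' median log2 difference was 0.44, against 0.01 over all genes, with 29 positive differences. In both tumors 2 members lay above and 1 below both controls (all genes, 13.4% and 16.8%). In VM231 cells 26 members were above both controls and 5 below, and in VM236 cells 7 were above and 17 below. For a single library set against 2 controls the share of all genes was not counted, so these counts have no background. Egln3 had 44.2 and 11.2 CPM in VM231 and VM236 cells and 9.83 and 10.8 CPM in controls. Pkm had 2752 and 736 CPM in the same tumor libraries and 796 and 970.5 CPM in controls. Hk3 was high in both, at 64.1 and 24.1 CPM, against 4.22 and 5.25 CPM in controls (log2 difference 3.22 ± 0.55, adjusted p = 0.842 by edgeR), and it was the single member that DESeq2 called higher (all genes, 1.37%). Without VM236 edgeR called 18 members higher, where it called 10.4% of all genes, and without VM231 it called Hk3 alone (all genes, 1.44%). Each of these fits has 1 tumor library, assumed to vary as the 2 controls do, so its calls compare that library with the controls. Neutrophil markers summed to 5931 and 99.03 CPM in VM231 and VM236 cells and to 65.9 and 48.8 CPM in controls, and macrophage and monocyte markers to 3738 and 5308 CPM, against 570 and 1159 CPM in controls. Erythroid markers summed to 149 and 159 CPM in tumor cells and 32.3 and 40.6 CPM in controls, and B cell markers to 449 and 1446 CPM in tumor cells and 2792 and 2952 CPM in controls. Their part in the members' levels was not tested.

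In whole spleen of CD4-CreERT2 lymphomas, Egln3, Vegfa, Hk3 and Pgk1 were above every control spleen in all 3 tumors. No member passed by edgeR, where 0% of the 16163 genes tested were called in each direction. By edgeR 11 members had an unadjusted p under 0.05, as did 3241 of the 16163 genes. The median log2 difference of the members was 1.05, against -0.02 over all genes, with 25 positive differences. Every tumor spleen lay above every control spleen for 10 members and below for 1, Eno2 (all genes, 15.2% and 19.3%). DESeq2 called Pgk1, Hk2, Ldhb, Egln1, Egln3 and Vegfa higher (all genes, 8.31%), and without VM236 edgeR called Pgk1, Hk2 and Vegfa (all genes, 4.19%).

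Members above all control spleens numbered 29 in VM231, 19 in VM236 and 13 in VM294, and 3, 6 and 18 were below all of them. The share of all genes outside the controls in a single spleen was not counted, so these counts have no background. Slc16a3 had 194, 8.71 and 2.81 CPM in VM231, VM236 and VM294 spleens and 7.86, 9.01 and 16.4 CPM in control spleens. Gapdh had 2279, 262 and 190.4 CPM in the same tumor spleens and 331, 345 and 493 CPM in controls. The VM231 spleen was above all controls for both, and the VM294 spleen below all controls for both. Vegfa had 54.5, 2.26 and 7.68 CPM in tumor spleens and 1.17, 1.04 and 1.21 CPM in control spleens, a log2 difference of 4.26 ± 1.16. Egln3 had 21.97, 4.54 and 11.03 CPM in tumor spleens and 1.54, 2.79 and 4.08 CPM in control spleens, a log2 difference of 2.19 ± 0.70. Hk3 had 754, 44.7 and 52.2 CPM in tumor spleens and 12.9, 10.7 and 12.5 CPM in control spleens, a log2 difference of 4.58 ± 1.20. These 3 genes were above the controls in all 3 tumor spleens.

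The same spleens differed in other cells. Neutrophil markers summed to 102800, 2892 and 57580 CPM in VM231, VM236 and VM294 spleens and to 426 to 914 CPM in control spleens. Plasma cell markers summed to 67760 CPM in the VM294 spleen, 3195 and 7466 CPM in the other tumor spleens and 2715 to 5788 CPM in controls. Erythroid markers summed to 226 to 1367 CPM in tumor spleens and 48.1 to 53.9 CPM in controls, macrophage and monocyte markers to 5998 to 16000 CPM in tumor spleens and 1496 to 1865 CPM in controls, and B cell markers to 1076 to 6147 CPM in tumor spleens and 9359 to 9653 CPM in controls. These 3 lists and the neutrophil list did not overlap between tumor and control spleens. The VM294 spleen had 18368 genes with a count, against 22574 to 24162 in the other libraries of the set. The part of these cells, and of this library's makeup, in the members' levels was not tested. The tumor difference in CD4-CreERT2 spleens minus that in CD4-Cre spleens did not pass for any member by edgeR or by DESeq2. By edgeR 0.045% and 0% of the 17784 genes tested were called higher and lower. For 2 members, Eno2 (-4.62 ± 1.79) and Pdk1 (-1.09 ± 0.50), the unadjusted p by edgeR was under 0.05, as it was for 3372 of the 17784 genes.

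Across the 4 tumor comparisons, 20 of the 33 members had a positive difference in all 4 and 0 a negative one in all 4, where 11.9% of the 14505 genes tested in all 4 were positive and 10.6% negative throughout. Tumor libraries lay above all their controls in at least 3 of the 4 comparisons for 4 members, Aldoa, Pgk1, Vegfa and Egln3 (all genes, 0.738%). In all 4 this held for 1, Egln3 (all genes, 0.0758%). The margin was narrow in VM236 CD4+ cells, where Egln3 was 0.12 above the control mean in log2 CPM. The comparisons of CD4+ cells and spleen of a set come largely from the same mice. The mean log2 CPM over the 33 genes was 6.58 ± 0.44 in CD4+ tumor cells and 5.73 ± 0.06 in control cells of the CD4-Cre set (SD, n = 4 and 3), and 6.30 ± 0.14 in tumor spleens and 5.76 ± 0.23 in control spleens (SD, n = 3 each). In the CD4-CreERT2 set it was 6.78 and 5.64 in CD4+ tumor cells of VM231 and VM236 and 5.63 and 5.80 in control cells, and 7.08, 5.75 and 5.04 in spleens of VM231, VM236 and VM294 and 5.37 to 5.47 in control spleens. Tumor libraries lay above all controls in both tissues of the CD4-Cre set and overlapped the controls in CD4+ cells of the CD4-CreERT2 set. Of the CD4-CreERT2 tumor spleens, VM294 was below every control spleen and the others above.

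Per kilobase of exon, Ldha, Mif, Pkm, Aldoa and Eno1 were the 5 highest members in CD4+ control cells of each set. Ldha had 317 CPM per kilobase in CD4-Cre control cells (275 to 375, n = 3) and 347 in CD4-CreERT2 control cells (313 and 381), and Mif led in pre-lymphoma control cells at 145 (142 and 149). Ldha had 124 and 131 CPM per kilobase in those libraries, below Mif in both, whereas Mif had 181 to 271 CPM per kilobase in CD4-Cre control cells, below the range of Ldha. Vegfa was the lowest of the 33 in CD4+ control cells of every set, at 0.19 to 0.31 CPM per kilobase on average. Gapdh had 57.7 to 212 CPM in the pre-lymphoma and CD4-Cre tables and 190.4 to 2279 CPM in the CD4-CreERT2 tables. The latter were made in another layout and were scaled apart, so the Gapdh level is not compared across sets. Per kilobase, Gapdh ranked 17, 16 and 6 among the 33 in CD4+ control cells of the pre-lymphoma, CD4-Cre and CD4-CreERT2 sets. The cause was not tested.

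In control mice, Hk1 was higher and Hk3 lower in CD4+ T cells than in whole spleen in the main fits of both sets. Those fits did not pair the tissues by mouse, and fits on all groups of a set called fewer members, as given below. In the CD4-Cre set 8 members were higher and 7 lower in CD4+ cells than in spleen (all genes, 12.9% and 12.8%), with a median log2 difference of -0.08, against -0.02 over all genes. For 9 members all CD4+ libraries lay above all spleen libraries and for 9 below (all genes, 23.1% and 21.7%). In the CD4-CreERT2 set 12 were higher and 2 lower (all genes, 10.3% and 11.3%), with a median of 0.40, against 0.00, and 17 lay above and 4 below (all genes, 24.6% and 26.8%). Between the sets, which share no library, 5 members were higher in CD4+ cells in both, Hif1a, Egln3, Ldhb, Hk1 and Pfkm, 2 were lower in both, Hk3 and Pfkfb4, and 0 passed in opposite directions. Of the 15489 genes tested in both sets, 4.86% were higher in both, 4.74% lower in both and 1.63% passed in opposite directions.

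**Figure D5:**
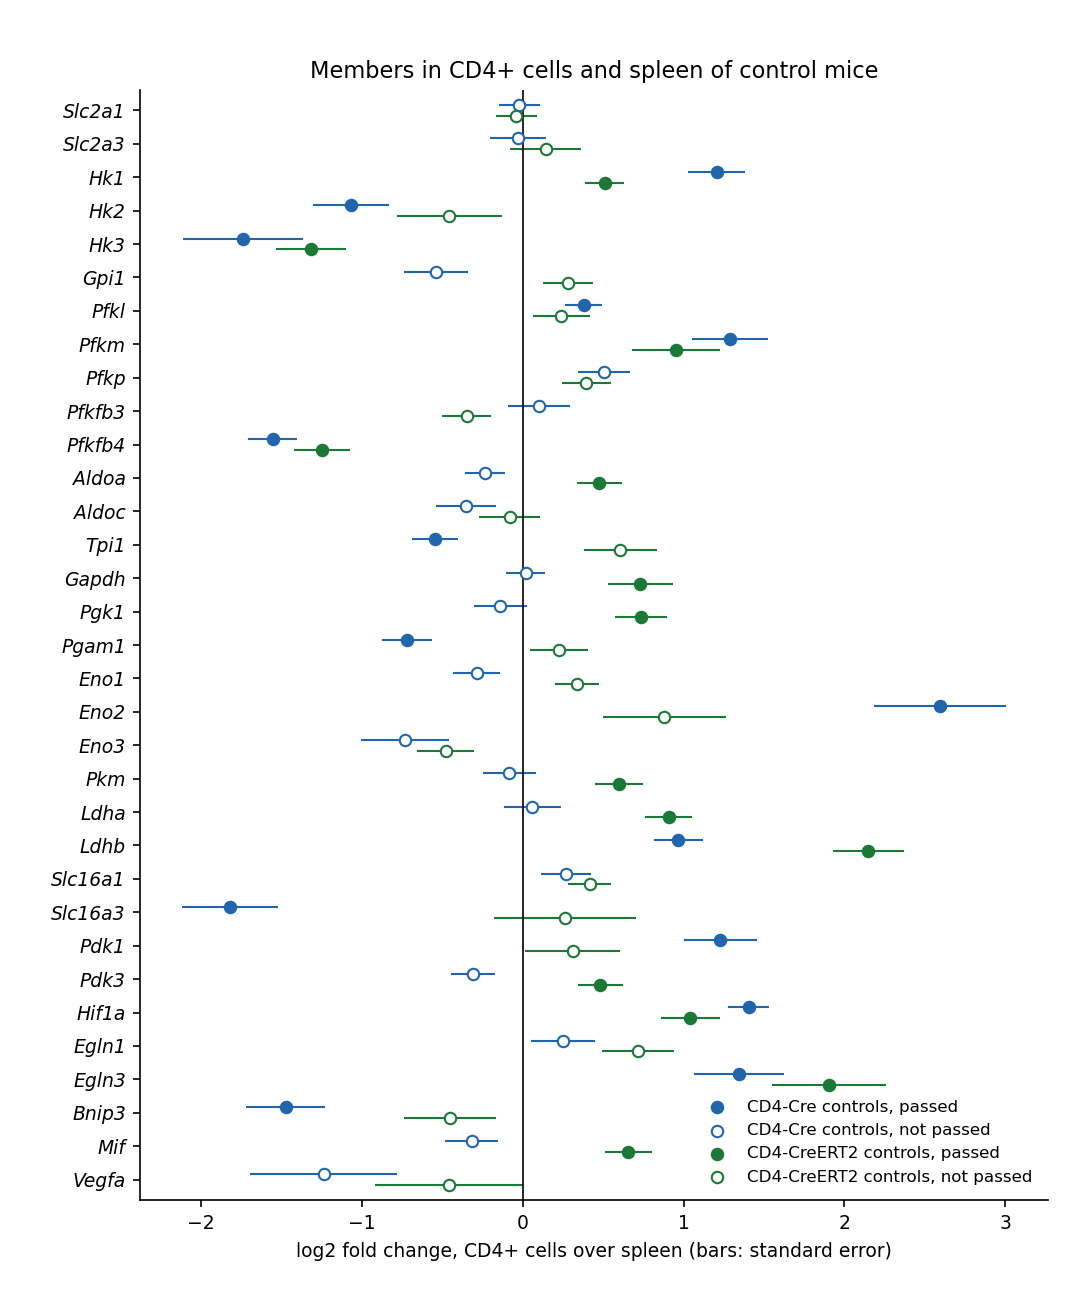
log2 fold change of CD4+ cells over whole spleen in control mice (horizontal axis, bars 1 standard error) for each of the 33 genes, in the CD4-Cre set (blue) and the CD4-CreERT2 set (green); filled points passed. Ldhb, Egln3 and Hif1a are to the right in both sets, and Hk3 and Pfkfb4 to the left.

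Ldhb had 41.9, 39.5 and 47.6 CPM in CD4-Cre control CD4+ cells and 18.5, 21.2 and 26.2 CPM in control spleens, and in the CD4-CreERT2 set 44.0 and 42.4 CPM in CD4+ cells and 11.1, 11.7 and 6.91 CPM in spleens. The tissues did not overlap, and the log2 differences were 0.97 ± 0.15 and 2.15 ± 0.22. Hif1a had 352, 317 and 298 CPM in CD4-Cre control CD4+ cells and 123, 132 and 109 CPM in spleens (1.41 ± 0.13), and it was 1.04 ± 0.18 higher in CD4+ cells of the CD4-CreERT2 set. Egln3 was 1.34 ± 0.28 and 1.90 ± 0.36 higher in CD4+ cells, and Pfkm 1.29 ± 0.24 and 0.95 ± 0.28. On the side of spleen, Pfkfb4 had 28.2, 34.4 and 24 CPM in CD4-Cre control CD4+ cells and 76.0, 91.8 and 86.6 CPM in spleens (-1.56 ± 0.15), and it differed by -1.25 ± 0.18 in the CD4-CreERT2 set. Hk3 differed by -1.74 ± 0.38 and -1.32 ± 0.22.

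Other differences passed in a single set. In CD4-Cre controls Slc16a3 had 13.1, 13.9 and 10.8 CPM in CD4+ cells and 24.4, 54.2 and 55.4 CPM in spleens, a log2 difference of -1.82 ± 0.30, while Eno2 (2.60 ± 0.41) and Pdk1 (1.23 ± 0.23) were higher in CD4+ cells and Bnip3 (-1.47 ± 0.25) and Hk2 (-1.07 ± 0.23) lower. In CD4-CreERT2 controls Slc16a3 differed by 0.26 ± 0.44 and did not pass. There Ldha (0.91 ± 0.15), Pgk1 (0.74 ± 0.16), Gapdh (0.73 ± 0.20), Mif (0.66 ± 0.14) and Pkm (0.60 ± 0.15) were higher in CD4+ cells. Whether these differences differ between the sets was not tested. Fitted with all groups of the set, the counts were 1 higher and 0 lower in the CD4-Cre set (all genes, 1.16% and 0.323%) and 0 in each direction in the CD4-CreERT2 set (all genes, 0% in each). The CD4-Cre count of lower members was 4 without the libraries numbered VM645, 4 without the CD4+ library of VM211 and 4 without the spleen of VM216 (all genes, 8.35%, 6.84% and 7.5%), and the CD4-CreERT2 count of higher members was 4 without the A2 spleen and 5 without the A3 CD4+ library (all genes, 5.49% and 5.18%).

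In tumor mice of the CD4-Cre set no member passed by edgeR between CD4+ tumor cells and tumor spleen (0% of the 17534 genes tested in each direction). Before adjustment 9 members were under 0.05 by edgeR, as were 2490 of the 17534 genes. By DESeq2 2 members were higher and 2 lower (all genes, 4.04% and 3.19%). The median log2 difference was 0.32, against 0.03 over all genes, and 5 members lay above and 1 below (all genes, 7.78% and 6.19%). In tumor mice of the CD4-CreERT2 set no member passed by edgeR (0% of the 17467 genes tested in each direction). Before adjustment 1 member was under 0.05 by edgeR, as were 672 of the 17467 genes. By DESeq2 0 members were higher and 0 lower. There the median log2 difference was 0.06, against -0.05 over all genes, and 4 members lay above and 0 below (all genes, 10.1% and 6.64%).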

How the data were processed

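Poly-A RNA of mouse CD4+ T cells and whole spleen was measured by RNA-seq (SMART-Seq v4 and Nextera XT libraries on Illumina HiSeq, per the labels' protocols). The authors deposited raw read counts per gene for each library, neither normalized nor pooled. HISAT2 2.1.0 and HTSeq 0.5.4, and the builds mm10 and GRCm38, are named in the submitters' processing notes. Whether counting used strand is not given in the sources used here. The CD4-CreERT2 tables list Ensembl identifiers. Gene symbols were matched to them from a reference list, for 48970 of the 49315 identifiers. The other tables list symbols, and their rows that name no gene, left out of library sizes, held 27.2 to 31.9% of the counts of a pre-lymphoma library and 32.7 to 46.0% of those of a CD4-Cre library. In the pre-lymphoma and CD4-Cre tables, copies named after Gapdh, Aldoa, Ldha, Mif, Pgam1, Pgk1 or Tpi1 held under 1% of the gene's counts. A read that matches a gene and its copy alike may be counted for neither. That share therefore does not show how many reads a gene lost, which was not tested. Copies were not counted for other members or in the CD4-CreERT2 tables.

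Each set was scaled by TMM and tested by edgeR 4.0.16 (quasi-likelihood, with limma 3.58.1, in R 4.3.3) after edgeR's filter on low counts. The 3 pre-lymphoma groups shared a fit, and each other comparison was fitted on its own groups. P-values were adjusted by Benjamini-Hochberg over all genes tested, with a threshold of 0.05. Mean log2 CPM used a prior count of 2. Levels and shares per kilobase, in all 3 sets, divide by the exon lengths listed in the CD4-CreERT2 tables. Those lengths merge all annotated exons of a gene, and the ranks and shares depend on them. Isozyme shares were also taken from counts not divided by length, which are not given here. Alternatives were DESeq2 1.42.0, other scalings, no filter, other fits, a sex term, a mouse block and leaving out each library. The test was also run on simulated counts with a known set of changed genes and the same dispersion for every gene. Real genes and libraries vary less evenly, so that run does not show how the test performs on these data. No 2 libraries were identical.

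CD4+ and spleen libraries with the same number come from the same mouse by their titles. Their deviations from group means correlated at 0.389 to 0.585 in the CD4-Cre mice and at 0.418, 0.477, 0.378 and -0.102 in A1, A3, VM236 and VM231.

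Any of the 33 genes could be named. Values per library are given for up to 4 members each way with the largest change among those that passed (mean log2 CPM of at least 1). In comparisons with no call they are given for members of large difference, and they are given for isozyme families. Some others, such as Pgk1, Pkm and Gapdh, and Egln3 in CD4-CreERT2 tumors, were picked outside this rule. Up to 3 genes of each context list were named by the same measure. Members and lists were chosen with earlier results of these data known.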

Additional observations from a re-analysis of the deposited data

Results flagged for a closer look

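Pfkfb4 in CD4+ cells of the CD4-Cre tumor VM645 was at 9.34 CPM, against 14.9 to 16.2 CPM in the other 3 tumor libraries. In log2 CPM, the scale of the screen, this gap passed Dixon's 95% critical value for 4 samples (Dixon's ratio 0.854). The flag holds for the log2 scale only, since levels in CPM were not screened. All 33 members were screened in that group, and chance flags about 1 in 20.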

How the results depend on the processing

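Among the alternatives run for single members, 730 values kept their direction and their side of the threshold, 33 lost a call, 41 gained one and 10 changed sign. The count of higher members ranged, when each library was left out in turn, from 2 to 8 for control/fusion against control, 13 to 20 for fusion/fusion against control and 8 to 16 between them, and the count of lower members from 1 to 1, 1 to 3 and 1 to 2. The lower count of fusion/fusion against control was 1 with no filter on low counts and 1 with DESeq2 (all genes, 12.6% and 18.6%). That of fusion/fusion against control/fusion was 2 with no filter (all genes, 6.6%). The share of all genes behind these ranges is not given here.

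In CD4+ cells of CD4-Cre tumors 13 members were higher with no filter (all genes, 0.652%). With DESeq2 18 were higher and 1 lower (all genes, 3.69% and 3.47%). The fit on all groups had 4 higher (all genes, 0.123%). With a library left out 0 to 13 were higher, the 13 without VM98 (all genes, 1.44%). In CD4-Cre tumor spleens 1 was higher with no filter (all genes, 0.287%). DESeq2 had 7 higher and 1 lower (all genes, 2.51% and 1.9%). With a library left out 0 to 3 were higher and 0 to 1 lower, most without VM98 (all genes, 1.09% and 2.27%). In CD4+ cells of CD4-CreERT2 tumors 1 was higher with no filter (all genes, 0.154%) and 1 with DESeq2 (all genes, 1.37%). With a term for sex 1 was higher (all genes, 0.946%). Leaving out a library there left a group with 1, so counts of those fits are not repeated here. In CD4-CreERT2 tumor spleens 2 were higher with no filter and 6 with DESeq2 (all genes, 1.35% and 8.31%). With a library left out 0 to 3 were higher, the 3 without VM236 (all genes, 4.19%). Between tissues of CD4-Cre controls 1 was higher and 0 lower in the fit on all groups (all genes, 1.16% and 0.323%). The count of lower members was 4 without the libraries numbered VM645 (all genes, 8.35%). With a library left out 7 to 9 were higher and 4 to 9 lower, ranges given without a share of all genes. Between tissues of CD4-Cre tumors 2 were higher and 2 lower with no filter (all genes, 0.944% and 1.62%). DESeq2 also had 2 higher and 2 lower (all genes, 4.04% and 3.19%). The fit on all groups had 2 higher and 1 lower (all genes, 2.66% and 2.67%). In CD4-CreERT2 controls 0 were higher and 0 lower in the fit on all groups, and 4 to 12 were higher with a library left out. For the spleen tumor difference in CD4-CreERT2 minus CD4-Cre mice, 0 to 1 were lower with a library left out. The count was 1 without the VM98 spleen and 1 without the VM231 spleen (all genes, 0.614% and 3.38%). The cause was not tested. Where leaving out a library left a group with 1, that library was assumed to vary like the other groups of the fit.

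With the mouse number as a replicate block, 9 members were higher and 9 lower in CD4+ cells than in spleen of CD4-Cre controls and 14 higher and 2 lower in CD4-CreERT2 controls, with 0 in both tumor comparisons and in the interaction. The share of all genes called in these fits is not given here. Block fits between tissues kept only mice with both tissues. They left out the A2 and VM294 spleens and the CD4+ tumor library of VM645. No count moved by over 1.5 times from the main fits, which held those libraries.

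In CD4+ cells of CD4-CreERT2 tumors the log2 difference of Vegfa was -0.24 with a term for sex and ranged from -0.27 (without VM231) to 4.57 with a library left out, and that of Bnip3 was -0.12 with the term and ranged from -0.13 (without VM231) to 2.82. In spleen Slc16a3 was at -0.37 with a term for sex and ranged from -0.94 (without VM231) to 3.23, and Hk2 was at -0.58 with the term. With a library left out, Slc16a3 ranged from -3.28 to 2.01 (without the VM231 spleen) between CD4+ tumor cells and spleen, and from -1.40 (without the VM231 spleen) to 2.70 in CD4-CreERT2 minus CD4-Cre spleens. Hk3 ranged from -2.79 to 0.69 (without the VM98 spleen) in the CD4+ minus spleen tumor difference. The term for sex leaves VM236 as the tumor mouse of the same sex as the controls. Depth limits members of low level, such as Vegfa and Eno2.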
